A study of Mus musculus with 16 samples.

Results

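Potassium channel subunits are the proteins that line or modify the potassium-selective pores of the cell membrane. Their genes were examined in the striatum, which receives the input of the basal ganglia, in 16 mice aged 13 months. Members were chosen by symbol: Kcn followed by one of the letters a, b, c, d, f, g, h, j, k, n, q, s, t or v and a digit, plus Kcnma1 and Kcnmb1 to Kcnmb4. This gave 80 of the 24421 genes in the count tables, and 2 symbols of the same form that name another kind of transcript (Kcnd3os and Kcnq1ot1) were left out. The mice formed 4 groups of 4. Con+Con and BACHD+Con were control and BACHD mice that received a control virus. Con+Foxp2 and BACHD+Foxp2 were control and BACHD mice that received a virus overexpressing Foxp2, a transcription factor of the forkhead family that striatal neurons express. The transgene of BACHD mice is a bacterial artificial chromosome that holds mutant human huntingtin, and these mice serve as a model of Huntington disease. All mice in the control groups were also injected, so no group is without virus. The virus type, the promoter that drives Foxp2, the cells it reaches and the time from injection to harvest were not given in the sources used here. RNA came from the whole dissected tissue, so fewer cells of a type and less RNA per cell cannot be told apart.

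Potassium channels set the resting potential of neurons, repolarize the action potential and, in astrocytes, take up the potassium that neurons release. Striatal projection neurons rest at a very negative potential held by inwardly rectifying channels, and a slowly inactivating A-type current of Kv1 subunits delays their first spike. Voltage-gated, calcium-activated and inward rectifier channels assemble from 4 pore-lining subunits, whereas two-pore-domain channels assemble from a pair. Loss of the astrocyte channel Kir4.1, the product of Kcnj10, has been described in mouse models of Huntington disease.

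Almost all members share a short coding stretch, the selectivity filter, in which threonine or serine is followed by a hydrophobic residue or threonine, glycine, an aromatic residue or leucine, and glycine. In the longest coding sequence of each gene in GENCODE M21 (GRCm38), 62 of the 80 members held 1 in-frame match to this pattern and all 14 two-pore-domain members held 2. The 4 Kcnmb genes, which encode accessory beta subunits with no pore of their own, held none. The pattern was narrowed after a looser form had given extra matches outside the pore. The stretches of the genes that the results turn on are shown 5′ to 3′ with the 15 bases of the filter in capitals. The first 2 are the astrocyte subunit Kcnj10 and the epithelial subunit Kcnj13.

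Kcnj10: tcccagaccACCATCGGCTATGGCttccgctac
Kcnj13: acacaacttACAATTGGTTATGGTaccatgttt

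The G protein-gated inward rectifiers Kcnj3, Kcnj6 and Kcnj9 are shown next because they moved together across libraries. They have the same kind of filter.

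Kcnj3: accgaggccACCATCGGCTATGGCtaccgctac
Kcnj6: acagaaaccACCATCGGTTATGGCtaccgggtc
Kcnj9: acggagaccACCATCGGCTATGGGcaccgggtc

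The sodium-activated channel Kcnt1 and the voltage-gated subunits Kcna1, Kcna4 and Kcnh7 complete the set. In Kcnt1 and Kcnh7 a phenylalanine codon takes the place of the tyrosine codon.

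Kcnt1: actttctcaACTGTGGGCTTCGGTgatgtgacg
Kcna1: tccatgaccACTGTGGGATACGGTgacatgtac
Kcna4: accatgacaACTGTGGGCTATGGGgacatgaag
Kcnh7: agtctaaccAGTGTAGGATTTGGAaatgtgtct

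Kcnk1, the highest two-pore-domain member, holds both of its filters in 1 coding sequence, and the second has a leucine codon in the aromatic position.

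Kcnk1 filter 1: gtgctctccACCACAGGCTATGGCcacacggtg
Kcnk1 filter 2: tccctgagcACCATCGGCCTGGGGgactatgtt

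The libraries held 2660395 to 3669748 reads assigned to genes, with a median of 3014099.5. Levels are given as CPM, a gene's reads divided by the library's read total after trimmed mean of M values scaling and multiplied by a fixed constant. At this depth 3 reads in a library equalled 0.819 to 1.16 CPM. Foxp2 was at 87.3 to 153 CPM in the 8 mice given the control virus and at 1291 to 4389 CPM in the 8 given the Foxp2 virus. The counted Htt was 2.14-fold higher in BACHD mice. All 11 markers of striatal projection neurons had reads, with a sum of 3180 to 6560 CPM. Markers of neighbouring tissue varied more: the sum of 10 genes of cortical excitatory neurons ran from 191 to 1386 CPM and the sum of 8 choroid plexus genes from 113 to 10758 CPM. Both are set beside the members below. The labels number the mice within groups but do not say that they share litters, so p-values rest on the spread between mice.

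Of the 80 members, 63 passed the filter on low counts and were tested. The 17 others had 0 to 101 reads over all 16 libraries. Kcnk16 was at 0 in every library, where a count of 0 allows up to 0.0619 CPM over the 16 together. Others among the 17 were Kcnj8, the vascular subunit of ATP-sensitive channels, with 96 reads, Kcnj5, the cardiac G protein-gated subunit, with 71, and Kcnq1, a cardiac and epithelial channel, with 38.

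Levels between genes were compared per kb of exon. In Con+Con striatum Kcna1, a fast-activating axonal Kv1 subunit, was the highest at 79.9 ± 6.87 CPM per kb (SD, n = 4). It was followed by Kcnj10 at 48.3 ± 6.69, the weakly conducting two-pore channel Kcnk1 at 41.6 ± 7.72, the strong inward rectifier Kcnj4 at 39.3 ± 9.3 and the axonal Kv1 subunit Kcna2 at 34.2 ± 6.42. Lower levels were those of the A-type subunits Kcnd2 at 31.2 and Kcna4 at 30.3 and of the mechanosensitive Kcnk2 at 25.5 CPM per kb. Several of these neighbours in rank overlapped mouse by mouse, among them Kcnj10, Kcnk1 and Kcnj4, and Kcna2, Kcnd2 and Kcna4. Altogether 22 members were over 10 CPM per kb, and the median of all 80 was 4.31.

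**Figure D1:**
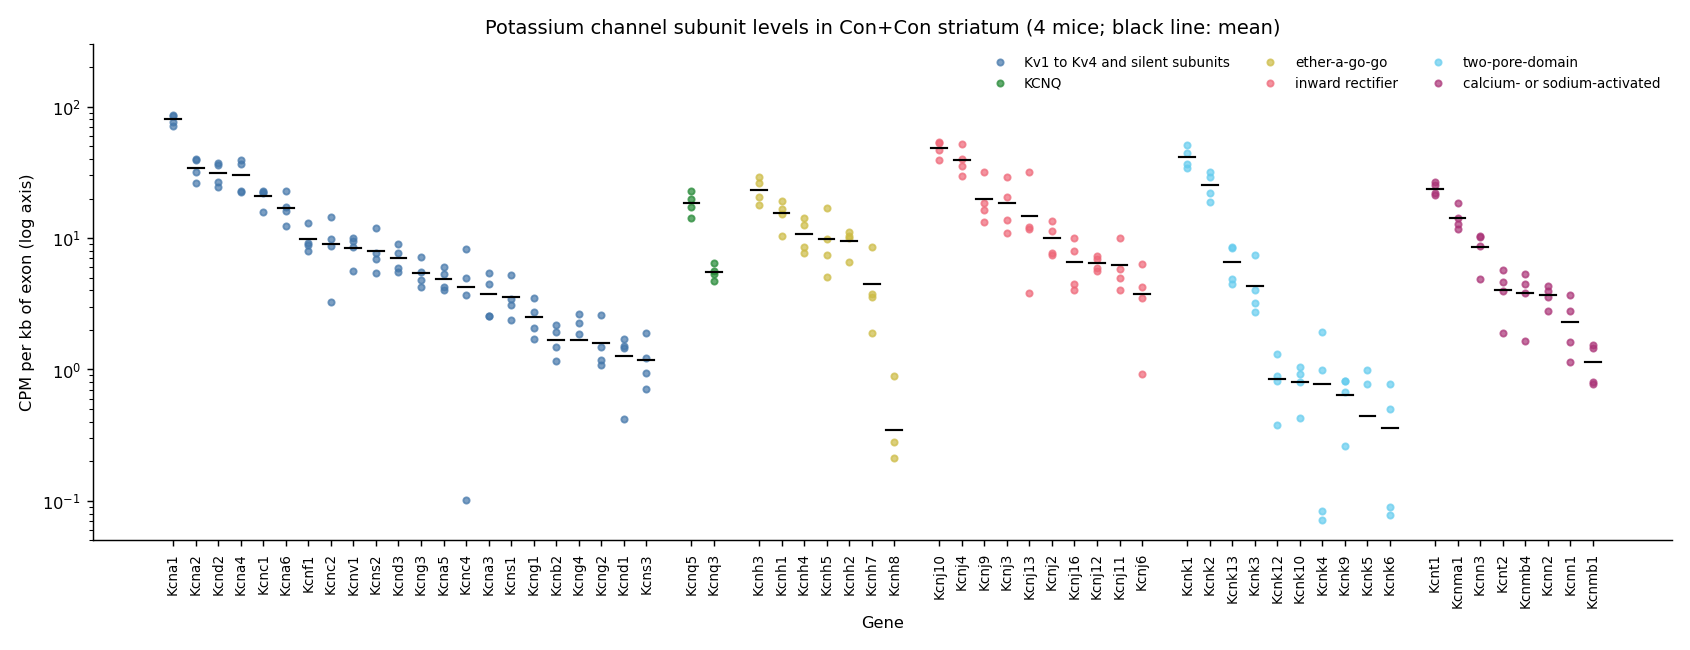
Level per kb of exon (vertical log axis, CPM per kb) of tested members in the 4 Con+Con mice, ordered by class and then by level, without the few members not reported here. Points are mice, black lines are means, and mice at 0 are not drawn. Kcna1 is highest at 79.9 CPM per kb, and most two-pore-domain members lie below Kcnk1 and Kcnk2.

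Each class had 1 or a few leading members. Among Kv1 to Kv4 and silent subunits, 24 of 27 were tested and the class summed to 2278 ± 140 CPM in Con+Con (SD, n = 4). Inward rectifiers (10 of 15 tested) summed to 699 ± 76.6 CPM, KCNQ members (4 of 5) to 684 ± 68.3, calcium- or sodium-activated members (8 of 11) to 644 ± 25.4, ether-a-go-go members (7 of 8) to 448 ± 71.3 and two-pore-domain members (10 of 14) to 283 ± 35.8. Kcnt1 led the calcium- or sodium-activated class at 23.8 CPM per kb, ahead of Kcnma1, the large-conductance calcium-activated pore. Kcnh3, a forebrain ether-a-go-go subunit, led its class at 23.4 CPM per kb, but it overlaps Mcrs1 on the other strand. Whether reads were counted by strand was not given in the sources used here. Taken from gene start to gene end, 27 of the 80 members overlap a gene on the other strand, Kcnj3, Kcnj6, Kcnj9, Kcnh7, Kcnk1, Kcnk2, Kcnma1 and Kcnq3 among them. Their counts may hold reads of that gene, and whether exons overlap was not tested. Only protein-coding, long intergenic RNA, antisense and processed transcript genes of GENCODE M21 were searched. None of these overlapped Kcnj10, Kcnt1, Kcna1 or Kcna4. The 80 members summed to 5037 ± 284 CPM in Con+Con, 4911 ± 501 in BACHD+Con, 4875 ± 186 in Con+Foxp2 and 4964 ± 177 in BACHD+Foxp2, with overlapping ranges.

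Mice given the Foxp2 virus were compared with mice given the control virus in each genotype, which asks how overexpression changes the striatal transcriptome with and without mutant huntingtin. Kcnj10, the main potassium channel of astrocytes, rose in control mice. No other member passed the test in that comparison, and none did in BACHD mice. Adjusted p-values are from the quasi-likelihood test of edgeR, with Benjamini-Hochberg adjustment across the 13563 genes tested, and a gene is called at an adjusted p under 0.05. In control mice 1 of 63 members was called, where 0.229% of all genes were, and 10 were at an unadjusted p under 0.05 (7.04% of all genes). In BACHD mice 0 of 63 were called against 0.243% of all genes, with 3 members at an unadjusted p under 0.05 (7.73% of all genes) and 0 called by DESeq2.

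Kcnj10 (chromosome 1, 172341210 to 172374085, GRCm38) was at 288, 251, 214 and 291 CPM in the 4 Con+Con mice. In Con+Foxp2 mice it was at 333, 529, 399 and 399 CPM. All control mice with the Foxp2 virus were above all control mice with the control virus, and the second Con+Foxp2 mouse was the highest of the study. The log2 fold change was 0.67 (SE 0.13), a 1.59-fold rise with an edgeR adjusted p of 0.0251. In BACHD mice Kcnj10 was at 257, 275, 227 and 238 CPM with the control virus and at 307, 263, 281 and 338 CPM with the Foxp2 virus. These groups overlapped by the second mouse of each, and the log2 fold change of 0.25 (SE 0.13) did not pass (edgeR adjusted p = 0.686). The difference between the genotypes in the virus effect was -0.42 on the log2 scale (SE 0.19), with an edgeR unadjusted p of 0.0348 and an adjusted p of 1.00, so it is not shown that the effect differs. Delivered Foxp2 itself was higher in Con+Foxp2 (4015 ± 431 CPM) than in BACHD+Foxp2 (1595 ± 288 CPM).

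Averaged over both genotypes, Kcnj10 rose with the Foxp2 virus by 0.46 on the log2 scale (SE 0.093, edgeR adjusted p = 0.00998). It was the 1 member called of 63 in that comparison, in which 1.05% of all genes were called. The rise in control mice lost its call without Con+Con mouse 2 (adjusted p = 0.107), Con+Con mouse 3 (0.0534), Con+Foxp2 mouse 2 (0.115) or Con+Foxp2 mouse 3 (0.0666), and in a fit of only these 8 mice (0.0604). Its adjusted p by edgeR or DESeq2 lay between 0.000566 and 0.115 in the settings tried. The averaged rise was called without each of the 16 libraries in turn, at an adjusted p of 0.0064 to 0.0276. The authors' deposited table of Con+Foxp2 against Con+Con gives Kcnj10 a log2 fold change of 0.59 with an adjusted p of 0.00284, the only member called among 111 genes there, and their other deposited tables call no member.

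Other astrocyte genes were mixed. The sum of 10 astrocyte markers, all with reads, was 7167 to 8770 CPM in Con+Con, 8062 to 8497 in Con+Foxp2, 6749 to 7285 in BACHD+Con and 7219 to 8422 in BACHD+Foxp2. Averaged over the genotypes, 8 of the 10 had a log2 difference above 0 with the virus, and 3 of the 10 rose, Gfap by 1.00 on the log2 scale (edgeR adjusted p = 0.000269), Aqp4 by 0.72 (0.00986) and Slc1a3 by 0.30 (0.0137). The gap junction gene Gja1 was at -0.13 (0.767) and the glutamate transporter gene Slc1a2 at 0.03 (0.893). With the astrocyte sum as a covariate, an alternative chosen after seeing the data, the Kcnj10 difference was 0.60 in control mice (edgeR adjusted p = 0.0923) and 0.36 on average (0.228), so both calls were lost. Most of this sum was Slc1a2, with means of 6163 of 7871 CPM in Con+Con and 6143 of 8290 CPM in Con+Foxp2. The higher mean of the sum in Con+Foxp2 did not come from Slc1a2, whose mean was not higher there. Between these groups the mean of Gfap went from 258 to 427 CPM, that of Slc1a3 from 484 to 620 and that of Aqp4 from 119 to 187. The covariate thus holds genes that themselves differed with the virus. The part of astrocyte number or state in the Kcnj10 difference was not tested.

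Kcnj16, which encodes the subunit that joins Kir4.1 in astrocyte channels, did not pass. In control mice its mean was 26.1 ± 11.4 CPM with the control virus and 29.9 ± 4.66 with the Foxp2 virus, a log2 difference of 0.19 with a 95% interval of -0.43 to 0.81 that still includes the size seen for Kcnj10. In BACHD mice it was at 25.7 ± 8.46 and 27.3 ± 10.4 CPM. Kcnj9 lies next to Kcnj10 on the other strand with start sites 11888 bases apart, and its log2 difference in control mice was 0.09 (95% interval -0.55 to 0.74).

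The promoter of Kcnj10 was read from RefSeq (GRCm38.p6) because Foxp2 binds DNA through a forkhead domain. Promoter entries were found for 58 of the 80 members, with 72 start sites. Windows of 250 bases before to 50 after the start were searched on both strands for TGTTTAC and TGTTTGC, forms of the forkhead site, for CAAATT, a FOXP2 site, and for the shared core TGTTT, which the first 2 contain. TGTTTAC was in 0 of the 72 member promoters against 3.65% of 32851 promoters in all, TGTTTGC in 2 against 5.07%, CAAATT in 1 against 11.0%, and TGTTT in 31 (43.1%) against 50.5%. The Kcnj10 window held a TGTTT match, shown in capitals in the 250 bases before the start, chr1:172340960-172341209 on the plus strand.

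Kcnj10 promoter: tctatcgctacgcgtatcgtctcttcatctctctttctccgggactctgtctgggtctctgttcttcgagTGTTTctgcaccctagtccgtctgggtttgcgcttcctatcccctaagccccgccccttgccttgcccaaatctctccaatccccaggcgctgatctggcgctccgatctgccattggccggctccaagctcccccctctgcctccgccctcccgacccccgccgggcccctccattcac

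**Figure D2:**
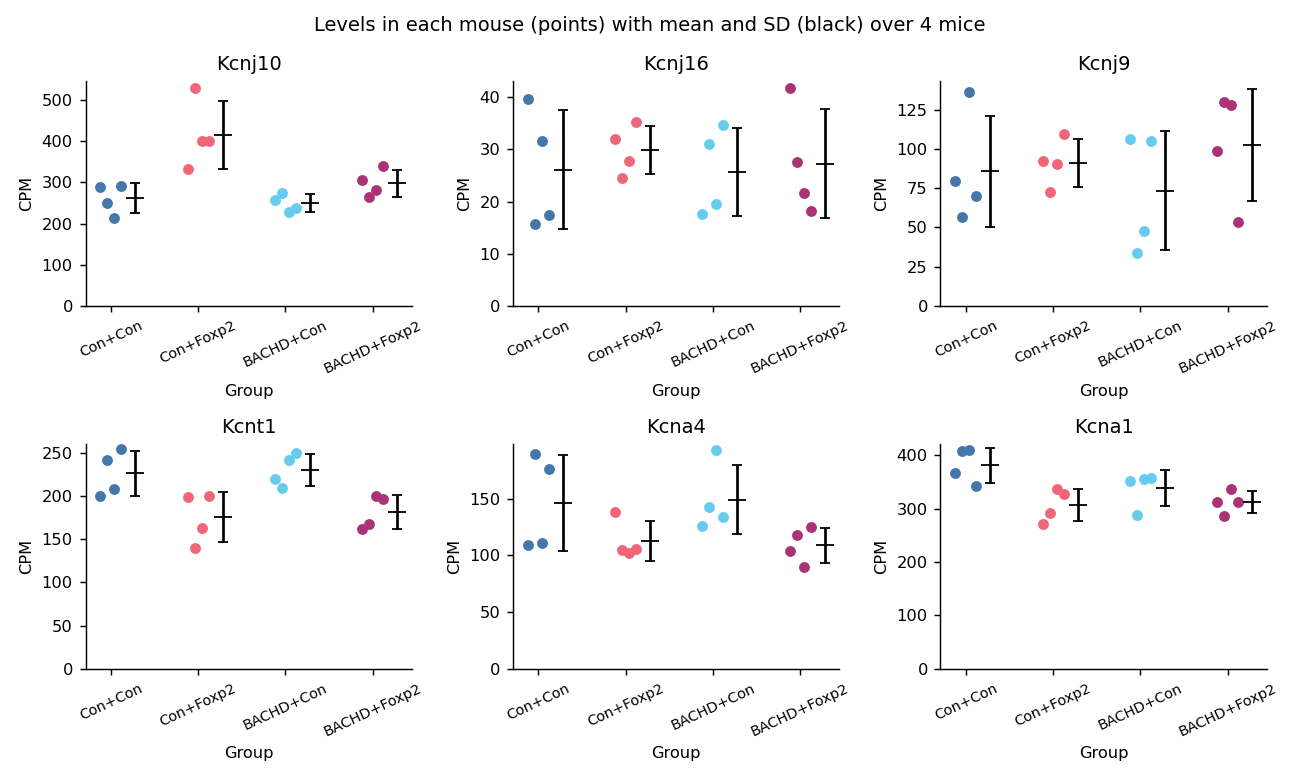
CPM (vertical axis, from 0) of 6 members in each of the 4 groups, with points for mice and the black bar for mean and SD over 4 mice. Kcnj10 is highest in Con+Foxp2 (333 to 529 CPM), Kcnt1 is lower in all 8 mice with the Foxp2 virus, and Kcnj16 and Kcnj9 overlap across all groups.

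Below the called gene, the lowest p-values among neuronal members were those of subunits that were lower with the Foxp2 virus. Kcnt1, the sodium-activated potassium channel Slack (chromosome 2, 25863734 to 25918273, GRCm38), was at 201, 242, 208 and 255 CPM in Con+Con and at 219.6, 209, 241 and 249.7 CPM in BACHD+Con. With the Foxp2 virus it was at 199, 140.1, 163 and 199.6 CPM in control mice and at 162, 168, 199.6 and 196 CPM in BACHD mice. The 8 mice with the Foxp2 virus were all below the 8 with the control virus, though the nearest values were about equal, and 0.17% of all genes were lower without overlap in this way. The averaged log2 difference was -0.35 (SE 0.089) with an edgeR adjusted p of 0.0551, just short of the threshold. DESeq2 called it (adjusted p = 0.0151), and so did edgeR without the filter on low counts (0.0342), with the cortical marker sum as a covariate (0.0452), and without Con+Con mouse 1 (0.0474), Con+Con mouse 3 (0.0412) or Con+Foxp2 mouse 1 (0.0428). The adjusted p lay between 0.0151 and 0.285 in the settings tried, the last value coming from a fit that left out the 3 libraries with least cortical marker RNA. The authors' deposited tables do not call Kcnt1 in either genotype.

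Kcna4, an inactivating Kv1 subunit of the A-type current, was at 109, 189, 111 and 176 CPM in Con+Con and at 138, 105, 102 and 105 CPM in Con+Foxp2. In BACHD mice it was at 126, 143, 193 and 134 CPM with the control virus and at 104, 118, 89.8 and 125 CPM with the Foxp2 virus. The BACHD groups did not overlap, whereas in control mice 2 of the Con+Con mice lay within the Con+Foxp2 range. The averaged log2 difference was -0.41 (SE 0.13, edgeR adjusted p = 0.155). Kcna1 was at 367, 408, 411 and 343 CPM in Con+Con and at 272, 293, 337 and 328 CPM in Con+Foxp2, again without overlap. Its log2 difference was -0.31 (SE 0.10, edgeR adjusted p = 0.384) in control mice and -0.12 (SE 0.11, 0.862) in BACHD mice. In control mice 2 of 63 members were lower without overlap, where 2.29% of all genes were, and 3 were higher without overlap, where 2.71% were.

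Sums of neuronal markers are set beside these values. Striatal projection neuron markers summed to 4972 ± 1811 CPM in Con+Con, 3828 ± 361 in Con+Foxp2, 4721 ± 1012 in BACHD+Con and 4072 ± 579.7 in BACHD+Foxp2, with 0 of 11 genes called. Striatal interneuron markers summed to 405 to 502 CPM in Con+Con and 404 to 469 in BACHD+Con, and to 267 to 359 in Con+Foxp2 and 310 to 413 in BACHD+Foxp2, with 3 of 10 genes lower in the averaged comparison. The cortical sum went the other way, with means of 639 ± 509 CPM in Con+Con and 585 ± 456 in BACHD+Con against 742 ± 293 in Con+Foxp2 and 849 ± 270.4 in BACHD+Foxp2, and 1 of its 10 genes fell. The ranges of the cortical and projection neuron sums overlapped between the viruses. With the cortical sum as a covariate the averaged log2 difference of Kcnt1 was -0.36 (edgeR adjusted p = 0.0452). Beyond this fit and the slopes given below, the part of these sums in the values of Kcnt1, Kcna4 and Kcna1 was not tested.

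Over all tested members the virus difference was small. In the averaged comparison 30 were higher and 33 lower, with a median log2 difference of -0.02 against -0.003 over all genes. At an unadjusted p under 0.05 there were 12 members, where 10.8% of all genes were. Of these, 4 were higher (5.32% of all genes) and 8 lower (5.51%). Those higher beside Kcnj10 included Kcnc4, at group means of 14.6 to 28.5 CPM, and Kcnh8, at 0.727 to 5.46 CPM. Kcnc4 was at 0.372 CPM in Con+Con mouse 4, and it also followed the cortical sum, as given below. Those lower beside Kcnt1, Kcna4 and Kcna1 were Kcng1, Kcng3, Kcnh2, Kcnh4 and Kcnj2. For 48 of the 63 the 95% interval lay within a 2-fold difference either way, and for 29 within 1.5-fold. Of the 39 members with a median of at least 20 CPM, 37 were bounded within 2-fold. The sign of the difference was the same in both genotypes, which share no mice, for 45 of 63 members (71.4%) and for 58.4% of all genes.

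**Figure D3:**
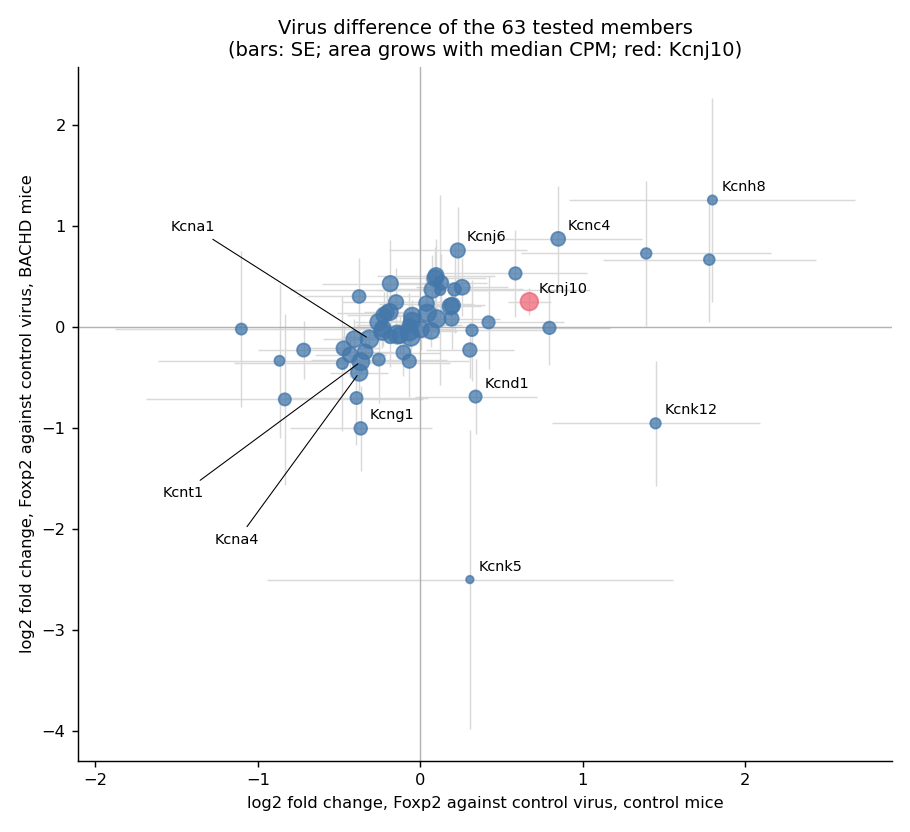
log2 fold change of Foxp2 over control virus, with control mice on the horizontal and BACHD mice on the vertical axis, for the 63 tested members, with bars of 1 SE and point area growing with median CPM. Kcnj10 (red, 0.67 and 0.25) lies above 0 on both axes, Kcnt1 (-0.37 and -0.34) and Kcna4 (-0.38 and -0.45) below, and the widest bars belong to members with few reads.

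Several members known for a role in neuronal firing had small averaged differences. Kcna2 had an averaged log2 difference of -0.05 (95% interval -0.27 to 0.16). Kcnd2, which carries the dendritic A-type current, was at 161 ± 33.7 CPM in Con+Con and 156 ± 29.2 in BACHD+Con, and at 134 ± 8.74 in Con+Foxp2 and 162 ± 17.7 in BACHD+Foxp2. Kcnq3, an M-current subunit, Kcnk1, Kcnk2, Kcnma1 and the small-conductance calcium-activated Kcnn3 all had averaged log2 differences between -0.10 and 0.09. These intervals bound the averaged difference at this depth and number of mice, and do not show that the groups are equal.

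BACHD mice were compared with control mice under each virus and on average, to ask what mutant huntingtin changes. Under the Foxp2 virus the genotypes also differed in Foxp2, at means of 4015 CPM in Con+Foxp2 and 1595 CPM in BACHD+Foxp2. That comparison and the average therefore cannot tell genotype and Foxp2 level apart. No member was called in any of the 3 comparisons. Of all genes, 0.0147% were called under the control virus, 0.059% under the Foxp2 virus and 0.0369% on average. DESeq2 also called 0 members in each, and at an unadjusted p under 0.05 there were 3, 2 and 4 members (3.44%, 4.18% and 4.05% of all genes). For 50 of the 63 the averaged 95% interval lay within 2-fold and for 34 within 1.5-fold.

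Kcnj10 had no genotype difference that passed. Under the control virus its mean was 261 ± 36.2 CPM in control mice and 249.3 ± 21.1 in BACHD mice, a log2 difference of -0.07 (95% interval -0.34 to 0.21). A loss of more than 0.34 on the log2 scale lies outside that interval. Under the Foxp2 virus it was 415 ± 82.2 against 297 ± 32.7 CPM, a log2 difference of -0.48 (SE 0.13) at an edgeR unadjusted p of 0.00125 and an adjusted p of 0.797. These groups overlapped by 1 mouse each, since the lowest Con+Foxp2 mouse (333 CPM) was below the highest BACHD+Foxp2 mouse (338 CPM). Foxp2 itself was 2.52-fold lower in BACHD+Foxp2 than in Con+Foxp2, so genotype and Foxp2 level cannot be told apart in this difference.

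Kcnj4, which encodes the strong inward rectifier Kir2.3 of projection neurons, was at 84.5 ± 20.01 CPM in Con+Con and 95.9 ± 9.13 in BACHD+Con, and at 71.8 ± 9.64 in Con+Foxp2 and 95.03 ± 20.4 in BACHD+Foxp2. Its averaged genotype difference was 0.30 (SE 0.12, edgeR adjusted p = 0.999), and its partner Kcnj2 had 0.11 (95% interval -0.21 to 0.43). Kcng1, a silent subunit that modifies Kv2 channels, was at 12.4, 15.8, 7.72 and 9.30 CPM in Con+Con and at 5.50, 29.7, 33.9 and 23.1 CPM in BACHD+Con. Of the BACHD+Con mice, 3 were above all Con+Con mice and 1 was below them, and the log2 difference was 1.03 (SE 0.42, edgeR adjusted p = 1.00).

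The interaction of genotype and virus called 0 of 63 members and 0 of 13563 genes with edgeR, with 2 members at an unadjusted p under 0.05 (3.8% of all genes) and 0 members called by DESeq2. These were Kcnj10 and Kcnk12, a silent two-pore-domain subunit at group means of 1.67 CPM in Con+Con, 4.69 in Con+Foxp2, 5.12 in BACHD+Con and 2.62 in BACHD+Foxp2. Its difference in virus effect was -2.40 on the log2 scale (SE 0.89, edgeR adjusted p = 1.00). The median SE of an interaction over members was 0.42, so only 28 of the 63 were bounded within 2-fold.

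Many members varied between mice of the same group along with marker genes of other cells. This was measured by the slope of each gene on the log2 sum of a marker list, with the group means in the model, as a log2 change per doubling of the sum. These slopes were added after seeing the data. On the cortical excitatory neuron sum 17 of 63 members were called, where 6.16% of all genes were. Of these, 14 were higher with more cortical marker RNA (4.42% of all genes) and 3 lower (1.75%).

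The G protein-gated inward rectifier subunits, which slow neuronal firing when receptors of inhibitory transmitters are active, were among the steepest. Kcnj3 was at 107, 56.6, 152 and 71.8 CPM in Con+Con mice and at 101, 77.9, 122 and 107 CPM in Con+Foxp2 mice. It was at 124, 50.5, 27.2 and 126 CPM in BACHD+Con and at 95.1, 154, 94.96 and 78.1 in BACHD+Foxp2. Mice with low cortical sums were low, such as BACHD+Con mice 2 and 3 (191 and 228 CPM) against mice 1 and 4 (788 and 1132 CPM). The slope of Kcnj3 was 0.61 (SE 0.081, edgeR adjusted p = 4.49e-06), that of Kcnj9 0.56 (SE 0.075) and that of Kcnj6 0.67 (SE 0.12). Kcnj6 was at 7.07 CPM in Con+Con mouse 4 and at 48.9 CPM in Con+Con mouse 3, whose cortical sums were 283 and 1386 CPM.

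Voltage-gated members followed the same sum. The ether-a-go-go subunit Kcnh7 had a slope of 0.65 (SE 0.090), the fast Kv3 subunit Kcnc4 of 0.76 (SE 0.17), and the silent subunits Kcnf1 and Kcnv1 of 0.48 (SE 0.089) and 0.44 (SE 0.095). Kcnma1 and Kcna2, both abundant, had shallower slopes of 0.22 and 0.21. Others higher were Kcnk3, Kcnh5, Kcna6 and Kcnt2, at 0.22 to 0.52. Kcnn3, Kcnd2 and Kcnj2 were lower with more cortical marker RNA, at -0.30, -0.19 and -0.27.

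**Figure D4:**
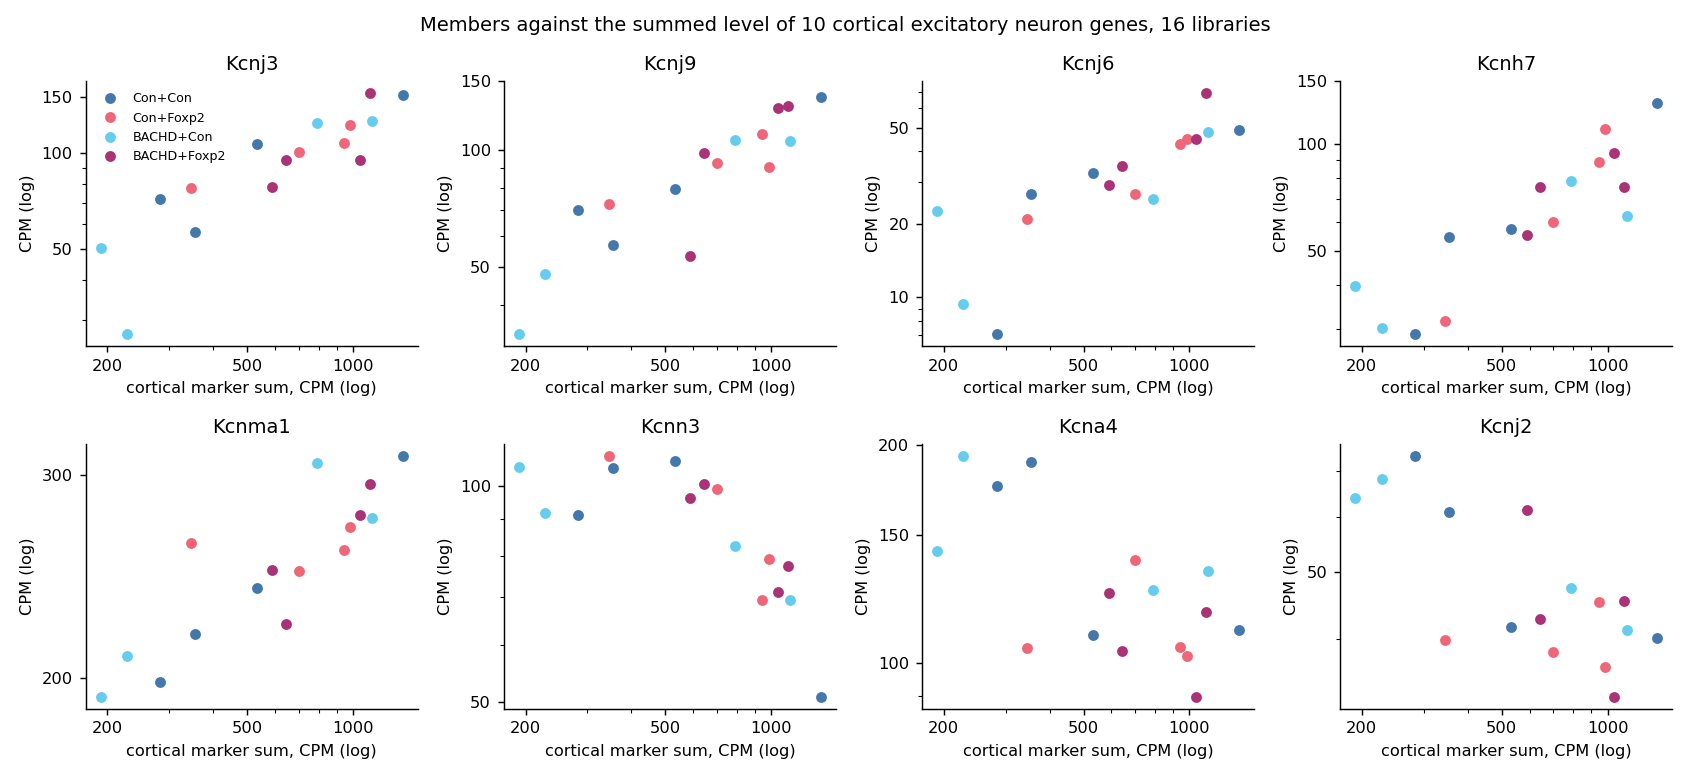
CPM of 8 members (vertical log axes) against the summed CPM of 10 cortical excitatory neuron genes (horizontal log axes), with 1 point per library coloured by group. Kcnj3, Kcnj9, Kcnj6, Kcnh7 and Kcnma1 go up with the sum, and Kcnn3 and Kcnj2 go down.

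How many slopes were called depended on the libraries at both ends of the sum. Of the 17 members, 8 were called without each of the 16 libraries in turn: Kcnj3, Kcnj6, Kcnj9, Kcnh7, Kcnc4, Kcnf1, Kcnv1 and Kcnma1. The count was 11 without Con+Con mouse 3 or without BACHD+Con mouse 4, the libraries with the highest sums, and 10 without both BACHD+Con mice 2 and 3, the libraries farthest from the median sum. In that last fit Kcnj3 (0.51), Kcnj6 (0.84), Kcnj9 (0.49), Kcnh7 (0.81) and Kcnv1 (0.51) were still called, and Kcnma1 (0.19, edgeR adjusted p = 0.0838), Kcnc4 (0.72, 0.0568) and Kcnf1 (0.40, 0.0542) were not.

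The sum of striatal projection neuron markers moved opposite to the cortical sum in many libraries, so its slopes are not independent of those above. On it 15 of 63 members were called, where 4.12% of all genes were, 3 higher (1.5% of all genes) and 12 lower (2.62%). The 3 higher were the A-type subunits Kcna4 (0.76, SE 0.14) and Kcnd2 (0.60, SE 0.13) and the strong inward rectifier Kcnj2 (0.86, SE 0.20), all known in projection neurons. The count was 7 without Con+Con mouse 3. Without Con+Con mice 2 and 4, the 2 with the highest sums, it was 8, and none of the 3 was then called, with slopes of 0.72, 0.65 and 1.04. In the fit of all libraries the 12 lower included Kcnj3 (-1.59), Kcnh7 (-1.56), Kcna2 (-0.57) and Kcnma1 (-0.54). Kcnj4, also a subunit of projection neurons, had a slope of 0.26 (SE 0.20) and was not called (edgeR adjusted p = 0.668). Kcnj10 and Kcnt1 were not called in either set of slopes. On the sums of oligodendrocyte and astrocyte markers 0 of 63 members were called by edgeR, where 0.649% and 0% of all genes were, with 7 and 1 members at an unadjusted p under 0.05 (10.4% and 4.93% of all genes).

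Kcnj13, which encodes Kir7.1 of ion-transporting epithelia, followed the choroid plexus markers. It was at 40.1, 4.83, 15.4 and 14.9 CPM in Con+Con mice and at 4.19, 1.31, 24.9 and 12.01 CPM in Con+Foxp2 mice. In BACHD+Con it was at 4.47, 65.7, 4.03 and 3.47 CPM, and at 2.93, 5.24, 28.2 and 11.2 in BACHD+Foxp2. In the 7 libraries with the choroid plexus transcript Ttr at 2588 to 10114 CPM, Kcnj13 was at 12.01 to 65.7 CPM, and in the 9 with Ttr at 89.7 to 376 CPM it was at 1.31 to 11.2 CPM. These sets do not overlap, and the high libraries were 3 of Con+Con, 2 of Con+Foxp2, 1 of BACHD+Con and 1 of BACHD+Foxp2. Its slope on the sum of 8 choroid plexus genes was 0.63 (SE 0.060, edgeR adjusted p = 2.15e-07), called without each library in turn. It was the 1 member called, where 0.914% of all genes were. Kcnj13 overlaps Gigyf2, which is on the other strand.

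**Figure D5:**
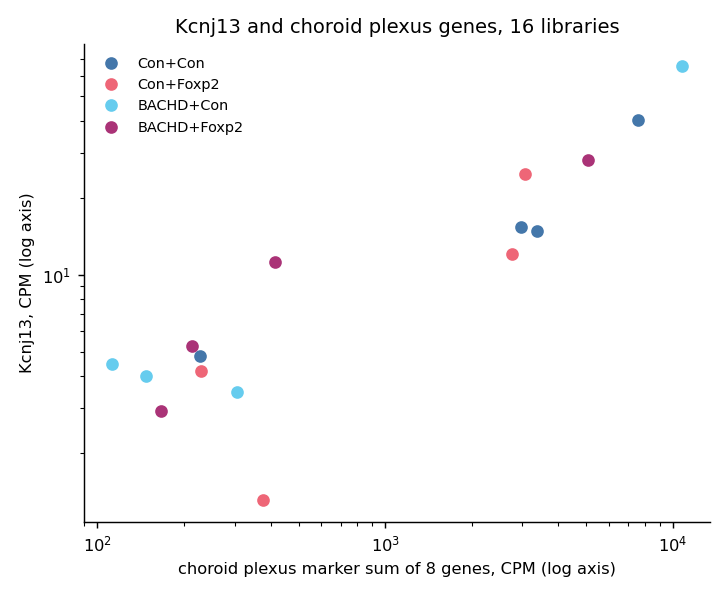
CPM of Kcnj13 (vertical log axis) against the summed CPM of 8 choroid plexus genes (horizontal log axis) in the 16 libraries, coloured by group. The 7 libraries with the highest sums have 12.01 to 65.7 CPM, and the others 1.31 to 11.2 CPM.

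Genes of auxiliary subunits and partners were read from a list of 37, of which 36 were in the files and 32 were tested. In the averaged virus comparison 2 fell, where 1.05% of all genes were called, and DESeq2 called 3. In the 6 other comparisons edgeR and DESeq2 called 0, with at most 8 at an unadjusted p under 0.05, in control mice, where 7.04% of all genes were. Kcnip2, which encodes the calcium-binding partner KChIP2 of Kv4 channels, fell from 211 ± 47.0 to 139 ± 14.8 CPM between Con+Con and Con+Foxp2 and from 205 ± 31.2 to 148 ± 40.6 between BACHD+Con and BACHD+Foxp2. Its averaged log2 difference was -0.54 (SE 0.12, edgeR adjusted p = 0.0255). The slope of Kcnip2 on the cortical sum was -0.17 (SE 0.062) and was not called (edgeR adjusted p = 0.107). The part of the cortical sum in the Kcnip2 fall was not tested. Nedd4l, a ubiquitin ligase that acts on KCNQ and sodium channels, fell by 0.42 on the log2 scale (SE 0.095, edgeR adjusted p = 0.0255), and it also had a called slope of -0.16 on the cortical sum, whose part in this fall was not tested. The Kv4 pore subunit Kcnd2 did not pass, at -0.10 (95% interval -0.32 to 0.11), and neither did the other Kv4 partners Dpp6 (-0.21, edgeR adjusted p = 0.227) and Dpp10 (0.21, 0.522). Of the related HCN channels 4 of 4 were tested and 0 were called by edgeR or DESeq2 in any comparison, with at most 2 at an unadjusted p under 0.05, between the genotypes under the Foxp2 virus, where 4.18% of all genes were. Among the slopes called on the cortical sum, those of the Kv1 beta subunits Kcnab3 (0.67) and Kcnab2 (0.23) were higher and that of Kcnab1 (-0.30), of the same family, was lower.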

How the data were processed

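Read counts per gene were deposited by the authors for 16 striatal libraries as whole numbers, not normalized. Per the submitters' processing notes, STAR 2.4.0, HTSeq, DESeq2 and the build mm10 were used. The strand setting and annotation were not given in the sources used here. RNA was isolated with a lipid tissue kit and amplified with SMARTer chemistry, per the labels' protocols. Reads outside genes, with several alignments or ambiguous stand in 5 closing lines and entered neither library sizes nor tests, which left 22.5% to 24.7% of listed reads. The authors also deposited log2 fold changes and adjusted p-values for 3 comparisons, which were only copied.

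Counts were tested with edgeR 4.0.16 in R 4.3.3 (limma 3.58.1): trimmed mean of M values, filterByExpr, group means over all 16 libraries, 12 residual degrees of freedom, the two-sided quasi-likelihood test, Benjamini-Hochberg over 13563 genes, called under 0.05. The 7 comparisons were the virus in each genotype, the genotype under each virus, both averages and the interaction. The fit was tested on simulated data. DESeq2 1.42.0, other scaling, no filter, a replicate block, fits of 2 groups and leaving out each library were alternatives. Marker sums as covariates or slopes and leaving out 3 libraries low in cortical markers were added after seeing the data. The members and lists were chosen with earlier results of these data known.

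Named members were those called, the 3 with the lowest p per comparison, the 2 highest per kb in each class and a panel of known roles (among them Kcna4, Kcnd2, Kcnj2, Kcnj4, Kcnj10, Kcnj16, Kcnj13, Kcnk2, Kcnq3, Kcnma1, Kcnn3 and Kcnt1), 22 in all. Some members' results are not reported here. Any other member named was chosen after its values were seen. Exon lengths, coordinates (counted from 1) and coding sequences are from GENCODE M21 on GRCm38, in which all 80 members were found. Intervals are 95% from the fit. Reads carry no molecular identifiers, so floors cover counting error only.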

Additional observations from a re-analysis of the deposited data

Results flagged for a closer look

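In each of the 4 groups of 4 mice, the highest and lowest value of every named member was set against its neighbours, and 4 of 88 such groups had a sample whose gap to the nearest other exceeded 0.829 of the range, a share chance gives in about 1 of 20 groups. Kcna1 was at 288 CPM in BACHD+Con mouse 2, below the 352 to 358 CPM of the others in its group. Kcna4 was at 138 CPM in Con+Foxp2 mouse 1, above 102 to 105 CPM. Kcnj13 was at 65.7 CPM in BACHD+Con mouse 2, above 3.47 to 4.47 CPM, and that mouse also had the highest Ttr of the study (10114 CPM). Kcnk2 was at 101 CPM in BACHD+Foxp2 mouse 1, below 131 to 136 CPM.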

How the results depend on the processing

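Alternative log2 fold changes were counted only for the 3 members with the lowest p in each comparison. Of these values, 481 kept their direction and side of the threshold, and none turned sign. A call was lost in 7 (all of Kcnj10) and gained in 6 (all of Kcnt1). Fold changes of the other named members were not counted here. In control mice the virus call count of 1 member went to 0 with a fit of only the 2 groups compared and with the astrocyte marker sum as a covariate, and ranged from 0 to 1 over the libraries left out. In the averaged virus comparison the count of 1 became 2 with no filter on low counts, with the cortical marker sum as a covariate and with DESeq2, and 0 with the astrocyte marker sum as a covariate, and ranged from 1 to 2 over the libraries left out. The causes were not tested. The count of slopes called on the cortical marker sum (17) was 10 without the 2 libraries farthest from the median and ranged from 11 to 19 over the libraries left out, and that on the striatal projection neuron sum (15) was 8 and ranged from 7 to 17. With fewer samples in these fits, fewer calls can follow from the number of libraries alone. Over all genes DESeq2 called 74, 61, 3, 14, 3, 232 and 7 genes, and edgeR 31, 33, 2, 8, 0, 143 and 5, in the comparisons of the virus in control mice, the virus in BACHD mice, genotype under the control virus, genotype under the Foxp2 virus, interaction, virus on average and genotype on average. No shared deviation of same-numbered mice was seen over all genes (24 pairs, correlation of -0.168 to 0.102, median -0.0094). This does not exclude a small shared effect, so the number was not treated as a pairing only because the labels do not give one. The edgeR fit with the replicate block kept every count of member calls (1 in control mice and 1 on average, both Kcnj10, at adjusted p of 0.0453 and 0.0195). Other scaling changed no member call. With 2660395 to 3669748 gene reads per library, members under 20 CPM are weakly bounded, and 4 mice per group limit the interaction most.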
